A study of Mus musculus with 8 samples.

Results

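The PPAR receptors and coregulators described here are 9 genes of the 55385 gene identifiers in a deposited RNA-seq table of mouse liver. They were chosen by symbol, with earlier results of these data known. They are the receptors *Ppara*, *Ppard* and *Pparg*, their heterodimer partner *Rxra*, the coactivators *Ppargc1a* and *Ppargc1b* (encoding PGC-1α and PGC-1β), the corepressor *Ncor1*, the Mediator subunit *Med1* and the membrane-bound factor *Creb3l3* (CREBH). All 9 were expressed above the filter on low levels and were tested. Of the 9, *Ppara* fell in *Usp39*-HKO livers and the other 8 did not pass the test. In each *Usp39*-HKO liver *Pparg* made up a larger share of the summed PPAR mRNA than in any control.

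PPARs are nuclear receptors that bind fatty acids and their derivatives and pair with a retinoid X receptor on DNA, where coactivators such as PGC-1α and MED1 recruit the transcription machinery and NCOR1 recruits histone deacetylases. In the fasted liver, PPARα switches on fatty acid oxidation and ketogenesis and acts with CREBH. PPARγ is scarce in normal hepatocytes and is known for driving lipid storage, and PPARδ is broadly expressed.

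The study asked what loss of *Usp39*, a component of the spliceosome, does to the liver. Livers of 4 *Usp39*-HKO and 4 control male littermates were compared, with 1 library per mouse and no pooling. All were 5 weeks old, on the C57BL/6J background, and had been fasted for 16 h before anesthesia, so no fed liver was measured. *Usp39*-HKO mice carried *Usp39* fl/fl alleles with loxP sites around exon 2 and an Albumin-Cre transgene, which is active in hepatocytes, so that other liver cells such as macrophages keep the gene. The control mice are WT in the labels and control littermates in the methods, and the floxed or Cre alleles they carried are not given in the sources used here. Mice are numbered 1 to 4 within each genotype as a name only.

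Counts on genes summed to between 8589636 and 10418450 per mouse. *Usp39* itself lay between 8.76 and 10.4 FPKM (fragments scaled to exon length and to the total of the library) in controls and between 8.07 and 8.70 after the knockout, without overlap, and fell by 0.41 on the log2 scale (SE 0.11, adjusted p = 0.0212). Its count sums all exons and does not isolate exon 2. Control mouse 4 stood apart, since its 10 pancreas acinar markers summed to 643.51 FPKM, or 0.088% of its counts, against at most 2.95 FPKM in any *Usp39*-HKO mouse. Results that change without it are given both ways. The livers expressed the hepatocyte markers at between 18996 and 26373 FPKM in sum, and 6 of the 14 tested were lower in *Usp39*-HKO livers. Of the tested markers, 11 of 14 for macrophages, 9 of 14 for stellate cells and fibroblasts, 5 of 7 for cholangiocytes and 8 of 9 for proliferating cells were higher. Of 12 endothelial markers 0 were higher and 2 lower, and of 8 lymphocyte markers 0 were called. Among all genes tested, 10.9% were called higher and 11.6% lower. The median gene was 0.23 higher on the log2 scale in *Usp39*-HKO livers when counts were scaled to library totals alone, so log2 fold changes below are given after TMM scaling (trimmed mean of M values), which the FPKM do not have. Of all genes called, 48.4% were higher with TMM scaling and 83.3% without it.

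The promoters of *Ppara* and *Pparg* are shown first, because *Ppara* is the member that was called, the shares of *Ppara* and *Pparg* differed between genotypes, and the table sums reads over all start sites of a gene. RefSeq (GRCm38.p6, the assembly of mm10) gave 13 start sites for the 8 members searched. The starts of *Ppargc1b* are not reported here. Each sequence runs 5′ to 3′ on the plus strand from 250 bases before to 50 bases after a start. Capitals mark the GC box GGGCGG and the nuclear receptor element AGGTCA, or their reverse complements.
*Ppara* start 1, chr15:85735526-85735825, plus strand: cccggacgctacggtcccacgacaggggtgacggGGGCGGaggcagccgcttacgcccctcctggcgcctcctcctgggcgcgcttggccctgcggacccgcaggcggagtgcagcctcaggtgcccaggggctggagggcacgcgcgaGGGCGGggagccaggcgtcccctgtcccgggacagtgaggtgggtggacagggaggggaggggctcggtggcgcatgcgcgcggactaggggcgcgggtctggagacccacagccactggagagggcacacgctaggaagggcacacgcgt
*Pparg* start 1, chr6:115360894-115361193, plus strand: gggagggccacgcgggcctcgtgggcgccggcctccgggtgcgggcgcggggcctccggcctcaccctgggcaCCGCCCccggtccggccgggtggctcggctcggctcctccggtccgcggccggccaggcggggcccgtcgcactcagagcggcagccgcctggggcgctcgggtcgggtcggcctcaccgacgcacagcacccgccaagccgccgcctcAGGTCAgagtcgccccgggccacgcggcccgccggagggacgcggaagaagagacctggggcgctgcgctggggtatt
*Pparg* start 2, chr6:115362099-115362398, plus strand: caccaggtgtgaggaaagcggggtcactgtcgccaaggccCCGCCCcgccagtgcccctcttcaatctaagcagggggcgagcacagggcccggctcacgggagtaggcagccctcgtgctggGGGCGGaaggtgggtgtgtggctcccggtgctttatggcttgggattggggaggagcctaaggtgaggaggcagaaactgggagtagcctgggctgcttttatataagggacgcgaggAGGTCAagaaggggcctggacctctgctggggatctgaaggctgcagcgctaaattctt
*Pparg* start 3, chr6:115421816-115422115, plus strand: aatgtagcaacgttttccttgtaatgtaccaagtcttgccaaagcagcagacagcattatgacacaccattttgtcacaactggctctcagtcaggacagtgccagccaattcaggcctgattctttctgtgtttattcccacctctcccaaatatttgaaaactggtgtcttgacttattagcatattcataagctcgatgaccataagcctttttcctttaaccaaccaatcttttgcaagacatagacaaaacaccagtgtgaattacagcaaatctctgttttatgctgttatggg

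The *Ppara* promoter was 74.7% G and C, above 95.8% of the 32851 mouse promoters, and held 2 GC boxes and no AGGTCA. The 3 *Pparg* starts were unlike each other. Start 1 was 80.3% G and C with 1 GC box and 1 AGGTCA, start 2 was 62.7% with 2 GC boxes and 1 AGGTCA, and start 3 was 40.3% with neither. Among the 13 member starts, 7 held a GC box and 4 held AGGTCA on either strand, against 35.7% and 16.3% of all promoters. The full PPAR element, searched as the direct repeat AGGNCANAGGNCA, which can contain AGGTCA, was in 0.381% of all promoters and the cyclic AMP response element TGACGTCA in 1.79%, and neither was in these 13 windows. These matches are descriptions of letters and not of binding.

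On GRCm38 (GENCODE vM21), the receptor genes were *Ppara* (chr15:85734983-85802819, plus strand, 12 merged exons), *Ppard* (chr17:28232700-28301474, plus strand, 10 merged exons), *Pparg* (chr6:115360951-115490399, plus strand, 13 merged exons) and *Rxra* (chr2:27676440-27762957, plus strand, 14 merged exons). The coregulators were *Ppargc1a* (chr5:51454250-51567726, minus strand, 14 merged exons), *Ppargc1b* (chr18:61298136-61400431, minus strand, 14 merged exons), *Ncor1* (chr11:62316426-62458541, minus strand, 50 merged exons), *Med1* (chr11:98152154-98193293, minus strand, 20 merged exons) and *Creb3l3* (chr10:81084324-81098874, minus strand, 12 merged exons). Each is protein-coding. *Ncor1* has 0.648% of its exon bases opposite *Pigl* and *Ttc19*, and the other members overlap no exon of another gene. The exon length used for FPKM equals that of GENCODE vM21 for all members but *Rxra* (6303 against 5462 bases), so its level per length depends on the annotation used.

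In control livers the members spanned a wide range of levels per length. *Creb3l3* was the most abundant at 193 ± 7.76 FPKM (SD, n = 4), which was 2.02-fold the level of *Rxra* at 95.8 ± 8.08. *Ppara* followed at 68.5 ± 7.83 and *Ncor1* at 15.5 ± 1.02. *Ppargc1a* at 8.78 ± 2.91, *Med1* at 5.54 ± 0.62 and *Pparg* at 5.16 ± 1.23 came next, and the ranges of these neighbours overlapped. *Ppargc1b* at 3.27 ± 0.26 and *Ppard* at 1.95 ± 0.30 were the lowest. Apart from *Ppargc1a* against *Med1* and *Med1* against *Pparg*, the 4 control livers of each gene lay wholly above those of the next in the order.

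**Figure D1:**
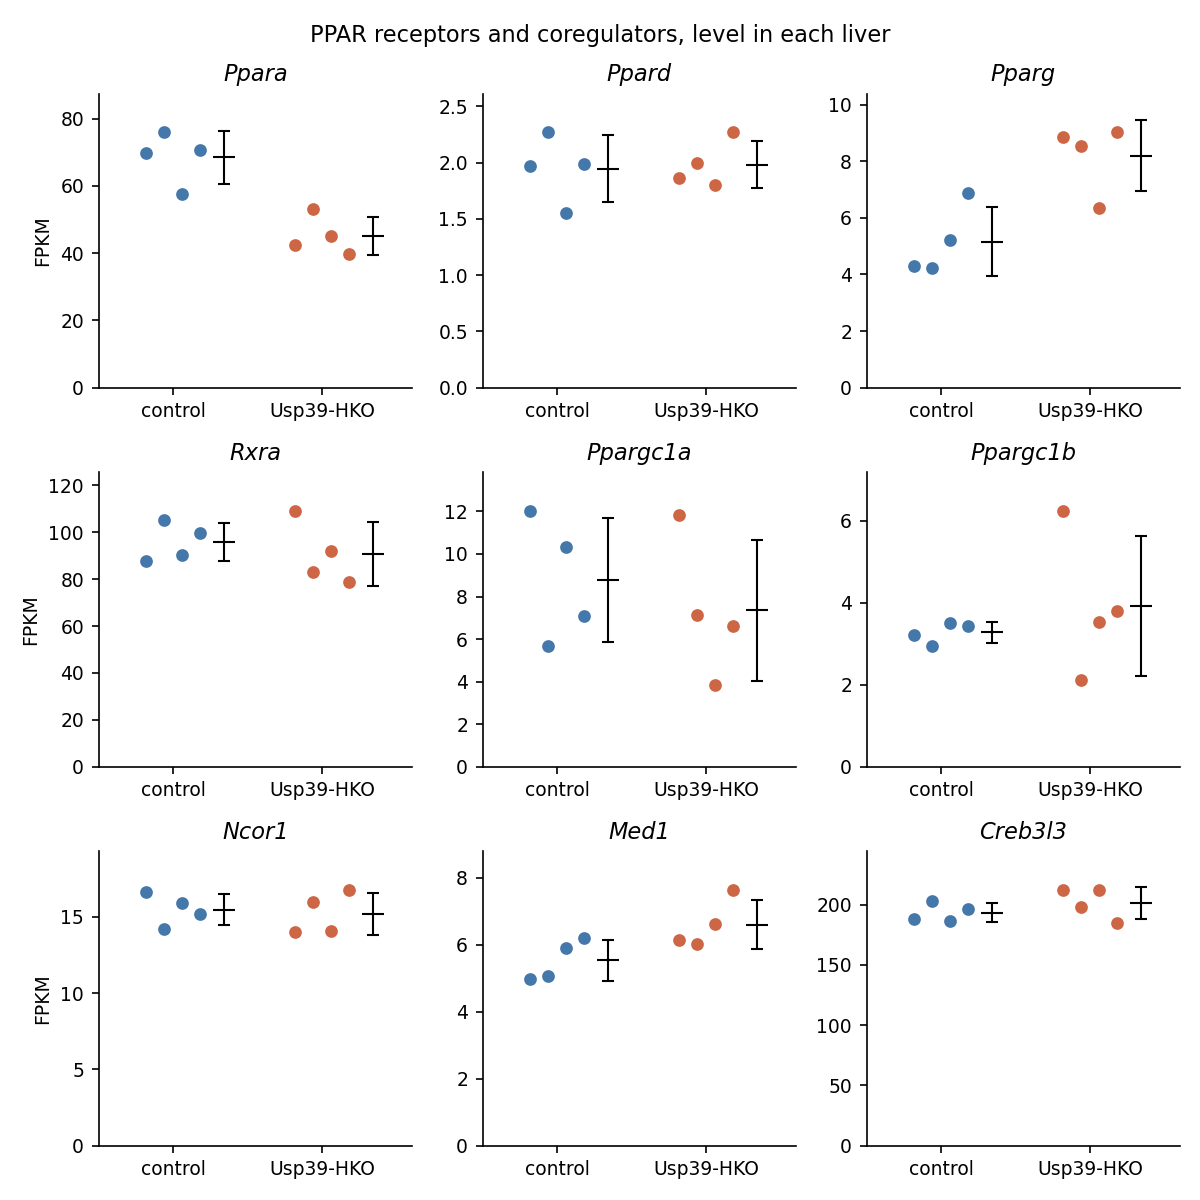
Level of each of the 9 members in FPKM (vertical axis from 0, its own scale in each panel) in the 4 control and 4 *Usp39*-HKO livers. Points are mice and the bar beside them is the mean and SD. *Ppara* is the panel whose groups do not overlap.

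*Ppara*, the fatty acid receptor of the hepatic fasting response, fell in the *Usp39*-HKO livers. It measured 69.8, 76.1, 57.5 and 70.5 FPKM in control mice 1 to 4 and 42.3, 53.1, 45.2 and 39.8 FPKM in *Usp39*-HKO mice 1 to 4. All 4 knockout livers lay below the lowest control, control mouse 3. The controls averaged 68.5 ± 7.83 FPKM and the knockouts 45.1 ± 5.78 (SD, n = 4 per genotype), and the log2 fold change was -0.83 (SE 0.13, 95% interval -1.13 to -0.54, edgeR adjusted p = 0.00209). *Ppara* was the 1 member of the 9 called, whereas 22.5% of the 14340 genes tested were called and 11.6% were called lower, so 1 in 9 is not above the background. A fall at least as large as that of *Ppara* was called for 3.11% of the genes. FPKM of the groups did not overlap for 28.7% of the genes, and lay lower without overlap for 4.81%. Behind these values were 1447 to 2892 counts per liver.

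The fall of *Ppara* passed the test in all 8 other fits of the whole table that kept every mouse and in all 8 that left out 1 mouse, with log2 fold changes between -0.92 and -0.74 in the latter. Without TMM scaling it was -0.60, and without control mouse 4 it was -0.83 (adjusted p = 0.00947). Of the 14 tested hepatocyte markers, 6 were lower as well (median log2 fold change -0.41). Relative to the mean log2 FPKM of these markers in the same liver, *Ppara* differed by -0.36 on the log2 scale, and on that scale the groups overlapped (exact permutation test, p = 0.0571). The markers' mean itself differed by -0.24, with overlapping groups (exact p = 0.0857). In a piece of whole liver, fewer cells of a type and less RNA per cell cannot be told apart.

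*Pparg*, the isotype of lipid storage, had a higher mean in the *Usp39*-HKO livers without passing the test. It measured 4.32, 4.24, 5.20 and 6.89 FPKM in control mice 1 to 4 and 8.85, 8.54, 6.35 and 9.04 FPKM in *Usp39*-HKO mice 1 to 4. The groups overlapped through control mouse 4, the highest control, and *Usp39*-HKO mouse 3, the lowest knockout. The log2 fold change was 0.43 (SE 0.17, 95% interval 0.06 to 0.81, edgeR unadjusted p = 0.0273 and adjusted p = 0.0924), and the exact permutation test on FPKM gave p = 0.0571. Without control mouse 4, the liver with pancreas transcripts, the log2 fold change was 0.59 and passed (adjusted p = 0.0357). It also passed without TMM scaling (0.66, adjusted p = 0.0169) and with limma on log2(FPKM + 1) (0.59).

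Macrophages also express *Pparg*, and 11 of their 14 tested markers were higher in the knockouts. These markers summed to 509 to 725 FPKM in the control group and 984 to 1388 in the knockout group. Relative to the mean log2 FPKM of the tested macrophage markers, *Pparg* differed by -0.18 and the groups overlapped (exact permutation test, p = 0.486). Relative to the hepatocyte markers it was higher by 0.93 and the groups did not overlap (exact p = 0.0286). Adipocyte markers were near 0, with a sum of at most 0.312 FPKM in controls and 1.28 in knockouts, and *Retn*, *Lep* and *Ucp1* had 0 counts in every liver. Which cells held the *Pparg* mRNA was not tested.

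*Ppard* was the scarcest isotype. It lay between 1.55 and 2.27 FPKM in controls and between 1.80 and 2.27 in knockouts, on 100 to 169 counts. The groups overlapped, and the log2 fold change of -0.21 (SE 0.13, adjusted p = 0.287) had a 95% interval of -0.51 to 0.08 and turned to 0.03 without TMM scaling.

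Shares within a liver do not depend on how libraries are scaled. *Ppara* made up 91.7, 92.1, 89.5 and 88.8% of the summed FPKM of the 3 isotypes in control mice 1 to 4 and 79.8, 83.4, 84.7 and 77.9% in *Usp39*-HKO mice 1 to 4. The share of *Pparg* was 5.67, 5.13, 8.10 and 8.68% in the controls and 16.7, 13.4, 11.9 and 17.7% in the knockouts. Each knockout liver thus had a lower *Ppara* share and a higher *Pparg* share than any control. The *Ppara* share fell by 9.09 percentage points on average and the *Pparg* share rose by 8.04 points, from 6.89 ± 1.75% to 14.9 ± 2.72% (SD, n = 4). The share of *Ppard* rose by 1.06 points, from 2.56 ± 0.14% to 3.62 ± 0.58%, while its mean FPKM was 1.95 in controls and 1.98 in knockouts. Each of the 3 gave an exact two-sided permutation p = 0.0286, the smallest that 70 assignments allow, and 0.0381 after adjustment over 4 shares. The 3 shares sum to 100% and are not independent of each other. The adjusted value rests on entering all 3, so it is not read as 3 results that passed. Without control mouse 4 the differences were -9.67 points for *Ppara* and 8.63 points for *Pparg*. The part of the macrophage markers, which were higher in the same livers, in these shares was not tested.

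Ratios between members of the same liver did not pass the correction. The ratio of *Pparg* to *Ppara* was 2.44-fold higher in *Usp39*-HKO livers, between 0.0557 and 0.0977 in controls and between 0.141 and 0.227 in knockouts. *Ppard* to *Ppara* was 1.56-fold and *Creb3l3* to *Ppara* 1.58-fold higher, also without overlap. Mean FPKM of *Ppard* was 1.95 in controls and 1.98 in knockouts, and that of *Creb3l3* was 193 and 202. All 3 ratios have *Ppara* as a term, and those of *Pparg* and *Ppard* restate the shares, so they add no separate result. For each of these 3 ratios the exact permutation test gave p = 0.0286, and p = 0.0571 after adjustment over the 6 ratios computed. *Ppara* to *Rxra* was 0.699-fold and *Ncor1* to *Med1* 0.822-fold (exact p = 0.0571 and adjusted p = 0.0686 for each), with overlap of the groups. The ratio of *Ppargc1a* to *Ppargc1b* was 0.726-fold (exact p = 0.257).

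**Figure D2:**
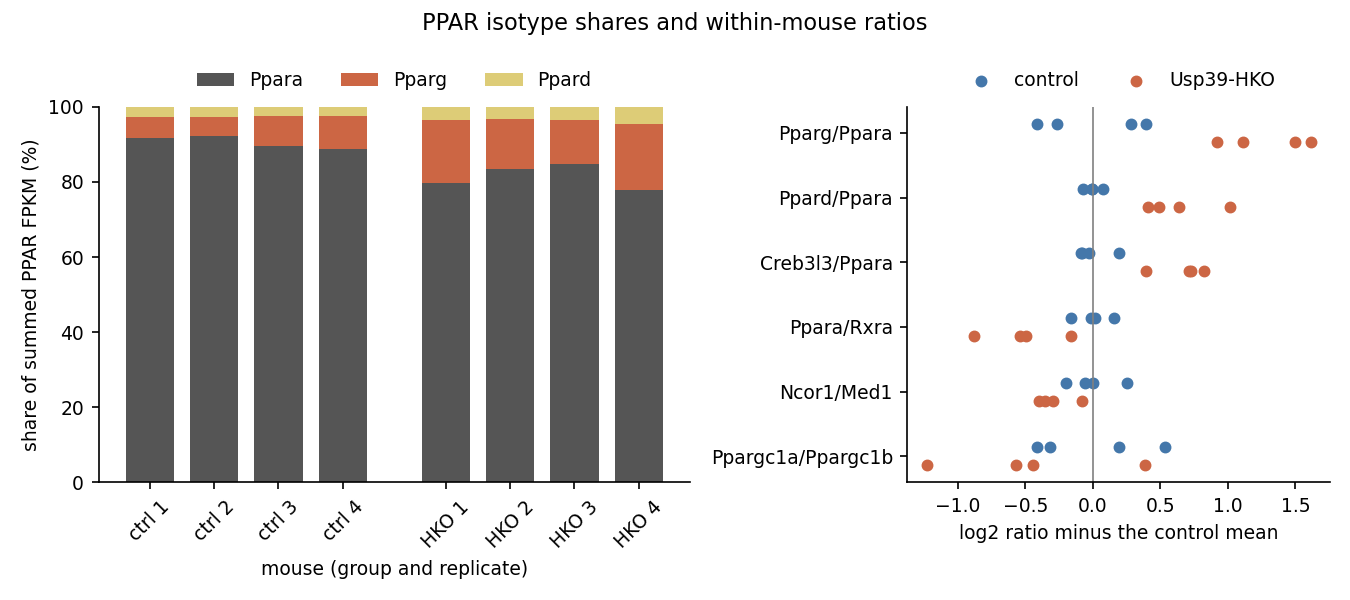
Left, share of *Ppara*, *Pparg* and *Ppard* in the summed FPKM of the 3 isotypes (percent, stacked bars, 1 bar per mouse). Right, log2 of 6 within-mouse FPKM ratios minus the control mean, 1 point per mouse. The *Ppara* share is between 88.8 and 92.1% in controls (ctrl) and between 77.9 and 84.7% in *Usp39*-HKO livers (HKO), and the ratios to *Ppara* in the upper 3 lines separate the groups.

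*Rxra*, the main retinoid X receptor of hepatocytes, differed by less than the threshold. It measured 87.9, 105, 90.5 and 99.7 FPKM in control mice 1 to 4 and 109, 83.1, 92.0 and 78.6 FPKM in *Usp39*-HKO mice 1 to 4. The groups overlapped, with the highest value in *Usp39*-HKO mouse 1. The log2 fold change was -0.30 (SE 0.15, 95% interval -0.63 to 0.03, adjusted p = 0.179). Without *Usp39*-HKO mouse 1 it was -0.42 and passed (adjusted p = 0.0371). *Rxra* took 89.6 ± 1.43% of the summed FPKM of *Rxra*, *Rxrb* and *Rxrg* in controls and 86.7 ± 1.49% in knockouts (exact permutation p = 0.0571).

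In the *Usp39*-HKO livers the PGC-1 coactivators varied more among mice than the other members did. *Ppargc1a* measured 12.03, 5.66, 10.3 and 7.11 FPKM in control mice 1 to 4 and 11.8, 7.11, 3.86 and 6.62 FPKM in *Usp39*-HKO mice 1 to 4. Its coefficient of variation was 33.2% in controls and 45.03% in knockouts, and the groups overlapped. The log2 fold change of -0.47 (SE 0.32, adjusted p = 0.324) had a 95% interval of -1.18 to 0.23. Without *Usp39*-HKO mouse 1 it was -0.83 and passed (adjusted p = 0.0406).

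*Ppargc1b* was nearly even in the controls, at 3.22, 2.93, 3.50 and 3.44 FPKM in mice 1 to 4. In *Usp39*-HKO mice 1 to 4 it was 6.24, 2.11, 3.52 and 3.81 FPKM, so the knockouts held both the highest and the lowest of the 8 livers. The coefficient of variation was 7.86% in controls and 43.7% in knockouts, and this difference in spread was not tested. The log2 fold change was 0.04 (SE 0.27, 95% interval -0.56 to 0.64, adjusted p = 0.938). Without *Usp39*-HKO mouse 1 it was -0.31, with the opposite sign, and it did not pass.

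*Usp39*-HKO mouse 1 held the highest level among the knockouts for both PGC-1 genes and for *Rxra*. Mouse 3 held the lowest *Ppargc1a* and mouse 2 the lowest *Ppargc1b*. The coactivators therefore did not follow a single order among the knockout livers.

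*Ncor1*, the corepressor that recruits histone deacetylase 3, lay between 14.2 and 16.6 FPKM in controls and between 14.02 and 16.8 in knockouts, with full overlap. On TMM-scaled CPM (counts scaled to the library total) it was between 197 and 233 in controls and between 169 and 188 in knockouts, without overlap. The log2 fold change of -0.26 (SE 0.10, 95% interval -0.48 to -0.05) missed the threshold in edgeR (adjusted p = 0.0729) and passed it in DESeq2 (adjusted p = 0.0343). It was -0.03 without TMM scaling, so the size of the difference depended on the scaling.

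*Med1*, the Mediator subunit that binds nuclear receptors, was 4.96, 5.06, 5.91 and 6.22 FPKM in control mice 1 to 4 and 6.14, 6.02, 6.61 and 7.64 FPKM in *Usp39*-HKO mice 1 to 4. The groups overlapped, and the log2 fold change was 0.02 (SE 0.10, adjusted p = 0.936). Its 95% interval of -0.21 to 0.24 was among the narrowest of the members.

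*Creb3l3*, a fasting factor that cooperates with PPARα, was 188, 203, 186 and 196 FPKM in control mice 1 to 4 and 212, 198, 212 and 185 FPKM in *Usp39*-HKO mice 1 to 4. The groups overlapped. The log2 fold change was -0.17 (SE 0.12, 95% interval -0.43 to 0.09, adjusted p = 0.349) and turned to 0.06 without TMM scaling. Relative to the hepatocyte markers *Creb3l3* was 0.30 higher on the log2 scale, without overlap (exact permutation test, p = 0.0286), and relative to the macrophage markers it differed by -0.80, also without overlap (exact p = 0.0286). The means of these markers themselves differed by -0.24 and 0.86, so both relative values mostly reflect the markers and not *Creb3l3*.

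**Figure D3:**
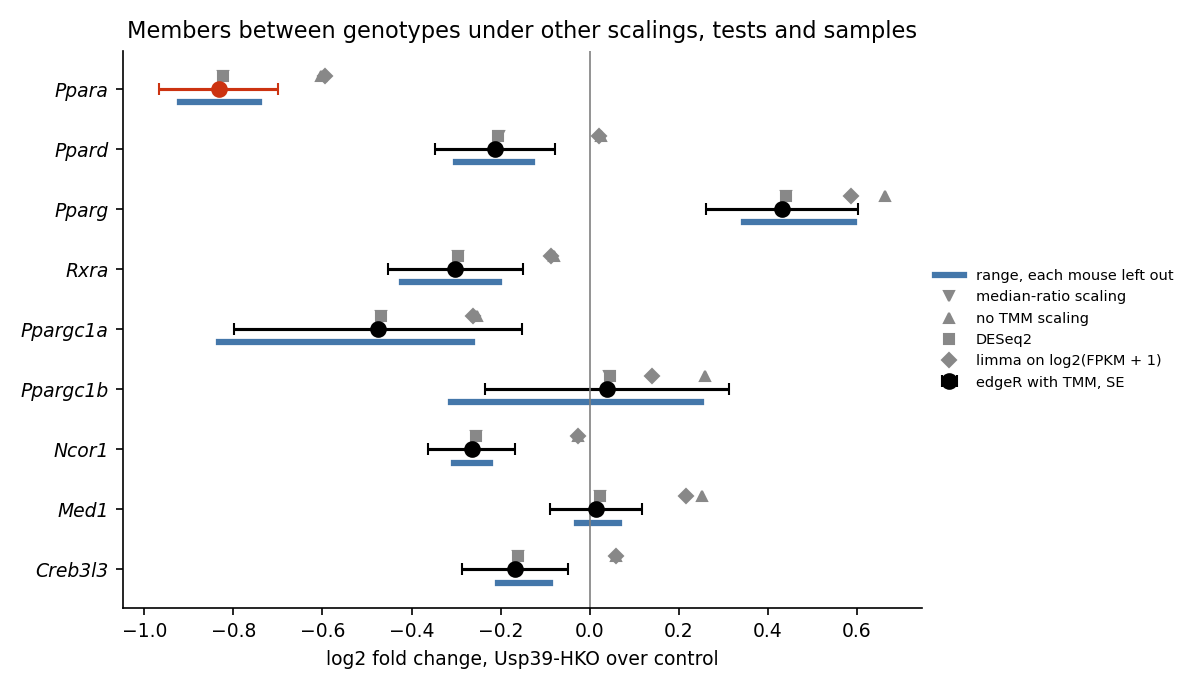
Log2 fold change of each member, *Usp39*-HKO over control (horizontal axis). Circles with bars are the edgeR estimate and its SE, red where the adjusted p is under 0.05, blue lines span the 8 estimates with 1 mouse left out, and gray symbols are other scalings and tests. *Ppara* is below 0 in each, whereas *Ppard*, *Ppargc1b*, *Med1* and *Creb3l3* lie on both sides of 0.

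Over the 9 members the median log2 fold change was -0.21, against -0.0015 over all genes tested. Besides *Ppara*, *Pparg* and *Ncor1* had an unadjusted p under 0.05, making 3 members. At the cutoff of the study's methods (unadjusted p under 0.05 and a log2 change beyond 0.5), 1 member passed, beside 21.7% of all genes.

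The profile most like that of each member was sought over the 8 livers, as the root mean square (RMS) difference of centred log2 CPM. For *Ppara* the nearest were *Rdh16*, a retinol dehydrogenase, and *Acsm5* and *Acsm1*, which activate medium-chain fatty acids, at RMS differences of 0.0982, 0.0988 and 0.0997 against a spread of 0.45 for *Ppara* itself. *Rdh16* shares 16.6% of its longest transcript with related genes. Nearest to *Pparg* were *Gm10643*, *Ifi207* and *Plaat3* (0.073 to 0.122 against 0.32). Nearest to *Ppargc1a* were *Pms1*, *Gm8712* and *Nr3c2*, at 0.242 to 0.262 against 0.59, the loosest match among the members, and *Gm8712* shares its whole transcript with *Snf8*. *Lrp4* was nearest to *Ppard* (0.062), *Ambp* to *Rxra* (0.051), *Magohb* to *Ppargc1b* (0.084), *Hook1* to *Ncor1* (0.043) and *Cradd* to *Creb3l3* (0.033).

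Genes of the pathways around these members were then described from 8 lists, each without the members. Of 46 tested fasting targets of PPARα, 8 fell, 4 rose and 34 did not pass, or 26.1% called beside 22.5% of all genes. The median log2 fold change was -0.20, against -0.0015 for all genes tested, and 33 of the 46 were below 0. These values hold after TMM scaling only, without which the median of all genes tested was 0.23. No share of all genes below 0 is given, so the count of 33 is not a result about the list. Without TMM scaling, where 83.3% of all genes called were higher, 5 rose and 5 fell. When control mouse 4 was left out, 3 rose and 6 fell, and without control mouse 1 or 3 it was 3 and 5.

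The targets that fell included enzymes and carriers of fatty acid uptake and activation. *Slc27a1*, a fatty acid transporter, averaged 8.76 ± 0.96 FPKM in controls and 5.28 ± 0.56 in knockouts (SD, n = 4), without overlap (log2 fold change -0.97, SE 0.11, adjusted p = 0.000591). *Slc27a2*, the very long chain acyl-CoA synthetase, fell by 0.79, *Acsl1*, which activates long-chain fatty acids, by 0.81, and *Retsat*, a retinol saturase, by 0.92 on the log2 scale. These 4 passed in each of the 16 other fits.

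*Cyp4a12a*, a fatty acid ω-hydroxylase, was 30.1 to 81.4 FPKM in controls and 0.610 to 22.5 in knockouts (log2 fold change -2.92, SE 0.81, adjusted p = 0.0248). It passed in 13 of 16 other fits, and was lost without control mouse 1 or 3 or *Usp39*-HKO mouse 2. It shares 98.8% of its transcript with *Cyp4a12b*, so reads of the pair may have been split. *Cyp4a10*, of the same enzyme family, fell by 0.61 (adjusted p = 0.0381), but it passed in only 8 of 16 other fits. It was lost without any 1 of the 4 control mice (adjusted p = 0.0704 without control mouse 4). *Ech1*, an enoyl-CoA isomerase of β-oxidation, fell by 0.49 (adjusted p = 0.0105) and was lost without TMM scaling (adjusted p = 0.0647).

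The 4 fasting targets that rose were *Pdk4*, *Acot2*, *Ucp2* and *Plin2*. *Pdk4*, the kinase that shuts off pyruvate dehydrogenase, was 27.8 to 63.0 FPKM in controls and 112 to 255 in knockouts (log2 fold change 1.96, SE 0.28, adjusted p = 0.00134). *Acot2*, a mitochondrial acyl-CoA thioesterase, was 11.03 to 38.6 and 59.0 to 106 FPKM (1.902, SE 0.34, adjusted p = 0.00348) and shares 30.5% of its transcript with *Acot1*. *Ucp2*, a mitochondrial carrier, rose by 1.14 and *Plin2*, the lipid droplet coat protein, by 0.65, the latter lost without control mouse 4 (adjusted p = 0.0614) and also without control mouse 1 or 3. The genes that rose thus lay beyond 1 on the log2 scale in 3 of 4 cases, while 7 of the 8 that fell lay between -0.97 and -0.49. Macrophage markers were higher in the same livers, and which cells held the mRNA of *Ucp2* and the other genes that rose was not tested.

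Other well-known genes of the fasting programme did not pass. *Cpt1a*, the gate of mitochondrial fatty acid import, had a log2 fold change of -0.34 (adjusted p = 0.0768), *Fgf21*, the fasting hormone, -0.21 (adjusted p = 0.690), and *Angptl4* 0.08 (adjusted p = 0.739).

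**Figure D4:**
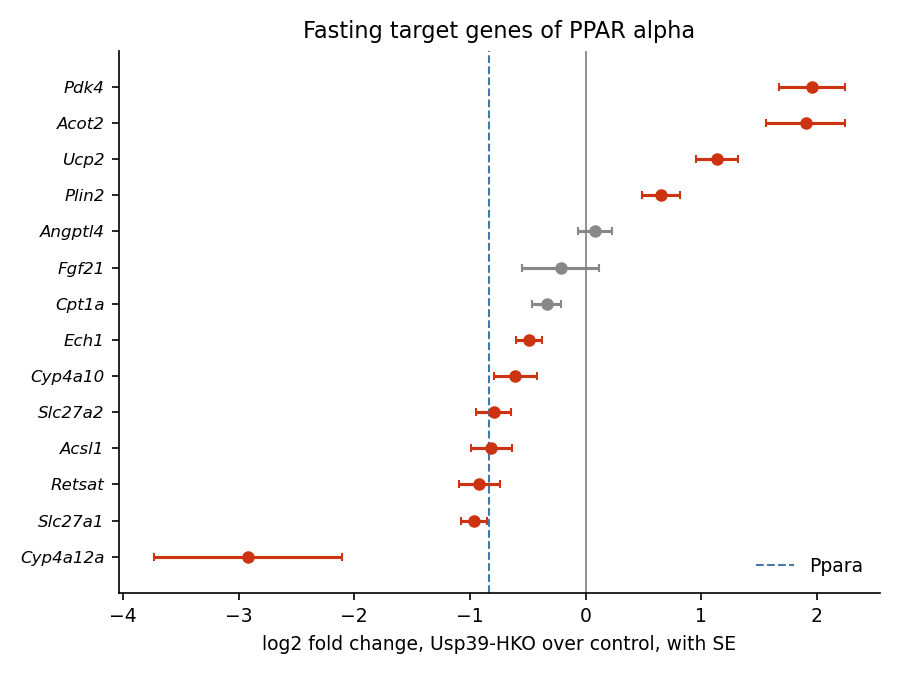
Log2 fold change with SE (horizontal axis) of the fasting targets of PPARα named in the text, *Usp39*-HKO over control, sorted by size. Red marks an adjusted p under 0.05, grey marks genes that did not pass, and the dashed line is *Ppara* at -0.83, with *Pdk4* at 1.96 and *Cyp4a12a* at -2.92 at the ends of the order.

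Of 11 tested PPARγ targets of lipid storage, 4 rose and 1 fell, beside 10.9% of all genes called higher and 11.6% lower. *Aqp7* passed the filter on low levels only through the knockouts, where it was higher, and among the other 10 genes 3 rose and 1 fell. *Cd36*, a fatty acid translocase, was 28.6 to 56.1 FPKM in controls and 82.3 to 153 in knockouts (1.36, SE 0.22, adjusted p = 0.00236). *Aqp7*, a glycerol channel, was at most 0.462 FPKM in controls and at least 0.630 in knockouts (log2 fold change 1.78). *Lpl*, lipoprotein lipase, rose by 1.02, and *Cidec*, a lipid droplet protein, rose by 0.95 and was lost without control mouse 4 (adjusted p = 0.0727) and also without control mouse 1 or 3. *Agpat2*, of triglyceride synthesis, fell by 0.68 (adjusted p = 0.0114). *Cd36* and *Lpl* are also expressed by macrophages, whose markers were higher, and the share of those cells in the 2 values was not tested. *Plin1*, *Adipoq*, *Cfd*, *Cidea* and *Mogat2* were below the filter on low levels.

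Of 23 tested partners and coactivated genes of PGC-1, 2 rose and 2 fell (17.4% called beside 22.5% of all genes, median -0.06). *Pck1*, the gluconeogenic carboxykinase, was 1079 to 1296 FPKM in controls and 727 to 999 in knockouts and fell by 0.68 (adjusted p = 0.0144). *Pprc1*, the third PGC-1 family member, rose by 0.49 (adjusted p = 0.0199), and *Cycs*, cytochrome c, by 0.31 (adjusted p = 0.0314). They passed in 11 of 15 and 10 of 16 other fits. *Yy1*, a PGC-1α partner, fell by 0.28 (adjusted p = 0.0487) and passed in only 2 of 16 other fits. When control mouse 4 was left out, *Pck1* was the 1 gene of the list that passed. The same held without control mouse 1, control mouse 3 or *Usp39*-HKO mouse 4.

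Of 13 tested CREBH targets, 1 rose and 2 fell (23.1% called beside 22.5% of all genes, median -0.23). *Crp*, encoding C-reactive protein, was 105 to 119 FPKM in controls and 40.9 to 84.0 in knockouts and fell by 1.17 (adjusted p = 0.00291). *Pck1* and *Cidec*, described above, were the other two. *Apoa4*, a lipoprotein gene, had a log2 fold change of -0.05 (adjusted p = 0.895).

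Of 12 tested RXR isotypes and heterodimer partners, 1 rose and 5 fell, which is 50% called beside 22.5% of all genes (median -0.21). *Nr1i3*, the xenobiotic receptor CAR, was 9.40 to 13.2 FPKM in controls and 4.63 to 6.48 in knockouts (log2 fold change -1.31, SE 0.16, adjusted p = 0.000758), although 74.8% of its exon bases lie opposite exons of *Tomm40l* and the strand used in counting is not given in the sources used here. *Nr1h4*, the bile acid receptor FXR, fell by 0.50 (adjusted p = 0.0309), with overlapping FPKM, and passed in 6 of 16 other fits. *Thrb*, *Nr1h3* (LXRα) and *Rara* fell by 0.47, 0.43 and 0.38, with overlapping FPKM, and passed in 6, 13 and 9 of 16 other fits. *Rarg*, a retinoic acid receptor, rose by 0.77 (adjusted p = 0.00788). Without TMM scaling, where 83.3% of all genes called were higher, 3 rose and 1 fell. When control mouse 4 was left out, 1 rose and 2 fell, and *Nr1h4*, *Thrb* and *Rara* passed in neither fit. The counts were also 1 and 2 without control mouse 3 or *Usp39*-HKO mouse 3.

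Of 21 tested nuclear receptor coactivators, 3 fell (14.3% called beside 22.5% of all genes, median -0.08). *Trip4* fell by 0.49, *Helz2*, a PPAR coactivator, by 0.38 and *Kat2b*, an acetyltransferase, by 0.33, each with overlapping FPKM. Each was lost without control mouse 4 (adjusted p = 0.0586, 0.0592 and 0.109) and without TMM scaling (adjusted p = 0.193, 0.401 and 0.630). Each was also lost without control mouse 1, control mouse 3 or *Usp39*-HKO mouse 4. In the fit without TMM scaling, where 83.3% of all genes called were higher, 5 other coactivators rose. *Trip4*, *Helz2* and *Kat2b* passed in 9, 5 and 4 of 16 other fits. The steroid receptor coactivators *Ncoa1*, *Ncoa2* and *Ncoa3* had log2 fold changes of 0.05, 0.0048 and 0.03.

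Of 17 tested corepressors, 1 rose and 1 fell (11.8% called beside 22.5% of all genes, median 0.02). *Nrip1* (RIP140), which represses oxidative genes, was 2.69 to 3.29 FPKM in controls and 4.47 to 6.45 in knockouts and rose by 0.50 (SE 0.11, adjusted p = 0.00791). *Nr0b2* (SHP), the bile acid responsive repressor, fell by 0.63 (adjusted p = 0.0415), with overlapping FPKM, and passed in 7 of 16 other fits. It was lost without control mouse 2, 3 or 4 (adjusted p = 0.103 without control mouse 4) and without *Usp39*-HKO mouse 2 or 4. *Hdac3*, a histone deacetylase that works with NCOR1, had a log2 fold change of 0.03.

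Of the 32 Mediator subunits besides *Med1*, 1 rose and 1 fell, which is 6.25% called beside 22.5% of all genes (median 0.03). *Med10* rose by 0.51 (adjusted p = 0.0143), with 92.8% of its exon bases opposite *Gm26819*. *Med12*, of the kinase module, fell by 0.39 (adjusted p = 0.0159) and was lost without control mouse 3 and without TMM scaling (adjusted p = 0.349). Without TMM scaling, where 83.3% of all genes called were higher, 8 Mediator genes rose.

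**Figure D5:**
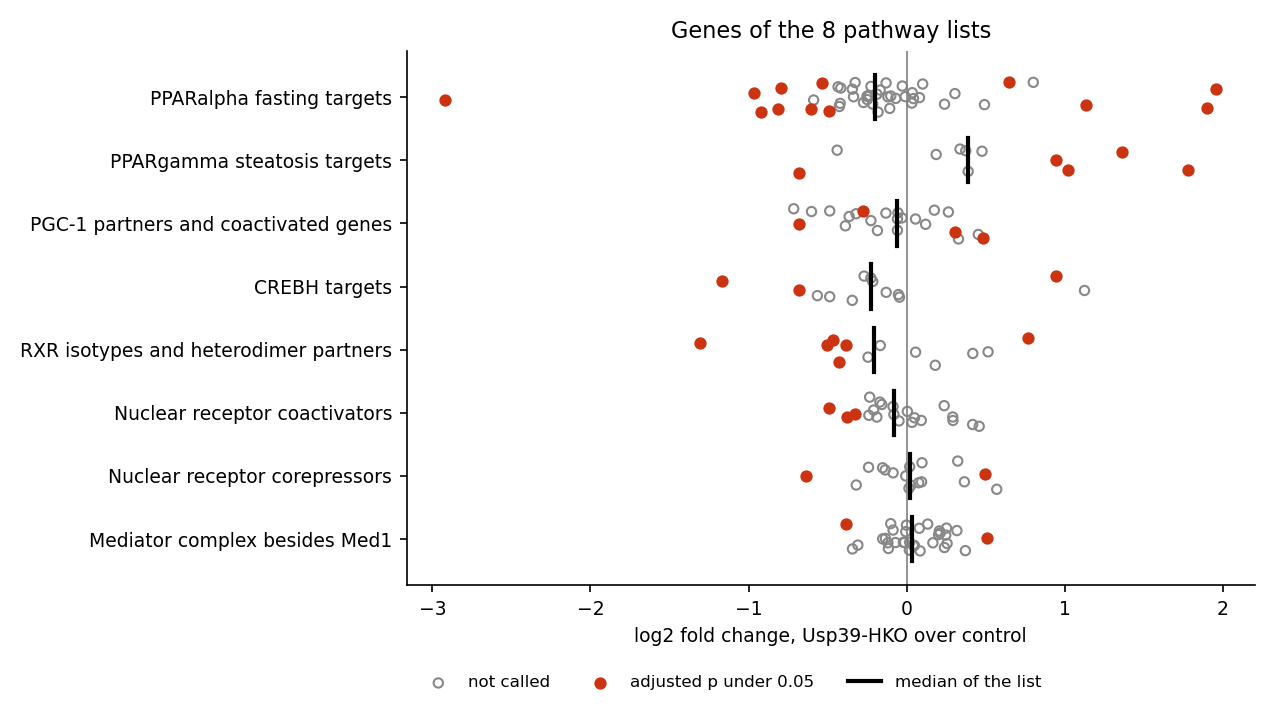
Log2 fold changes of the tested genes of the 8 lists, *Usp39*-HKO over control. Filled points have an adjusted p under 0.05, open points do not, and the black bar is the median of a list. The median is 0.39 for PPARγ targets (*Aqp7* included), -0.20 for PPARα targets and 0.03 for Mediator subunits.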

How the data were processed

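Liver RNA of 8 mice was sequenced with paired ends on an Illumina instrument. The authors trimmed reads with Trim Galore, aligned them to mm10 (HISAT2) and obtained gene counts with featureCounts. The strand setting and annotation release are not given in the sources used here. The authors deposited 1 table with the raw counts of each mouse, exon lengths, and the FPKM that the authors computed from them, which the counts, lengths and totals give back within rounding. The deposited columns of the authors' DESeq2 comparison (mean signal, log2 fold change, scores and p-values) were not used.

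Of 55699 entries, 314 repeated an identifier. Genes with at least 0.5 FPKM in at least 4 mice were tested (14340) with edgeR 4.0.16 (quasi-likelihood, TMM factors, no covariates), and two-sided p-values were adjusted by Benjamini-Hochberg over all of them. TMM factors were between 0.912 and 0.94 in controls and between 1.01 and 1.19 in *Usp39*-HKO mice. A gene was called at an adjusted p under 0.05. Each standard error was the fold change over the square root of F. Single values were compared with exact two-sided permutation tests over 70 assignments. A floor of 3 counts equalled 0.288 to 0.349 CPM and covers counting error only, since PCR reads without molecular identifiers are not independent. Counts of mice of one genotype differed by more than counting error.

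Members and lists were chosen with earlier results of these data known. Named were all members, up to 2 called genes per list and direction with the largest fold changes, and the 3 nearest profiles per member. Further list genes (such as *Acsl1*, *Cpt1a*, *Ncoa1* and *Hdac3*) were named after their values were seen. In the PPARγ list, 1 of 17 symbols (*Gyk*) was not matched and was not analysed here. A few genes that the rule would name are not reported here. Alternatives were other scalings, filters, DESeq2 1.42.0, limma 3.58.1 (voom, and log2(FPKM + 1) or log2(FPKM + 0.1)) and leaving out each mouse. Levels relative to marker genes, and list counts without genes that passed the filter through 1 group only, were added after seeing the data. Exon overlap came from GENCODE vM21, shared sequence from BLAST (at least 150 bases at 97% identity) and promoters from RefSeq. Each test was tested on simulated data beforehand.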

Additional observations from a re-analysis of the deposited data

Results flagged for a closer look

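The 10 pancreas acinar markers summed to 643.51 FPKM in control mouse 4, far above the other 3 controls, which is the 1 value singled out among 56 groups of 4 mice examined. Chance alone singles out about 1 in 20 such groups. The same liver had the highest *Pparg* of the controls, at 6.89 FPKM, and the part of pancreas transcripts in that value was not tested.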

How the results depend on the processing

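The fall of *Ppara* kept its direction and its call in all 16 fits of the whole table and lost only the separation of the groups relative to hepatocyte markers (-0.36). The number of members called was 1 in the reported fit, 2 without TMM scaling, with DESeq2 and with limma on log2(FPKM + 1) or log2(FPKM + 0.1), and 1 to 3 with a mouse left out. At the cutoff of the methods it was 1, then 2 without TMM scaling, at a mean FPKM of at least 5 and with either limma fit on FPKM, and 1 to 2 with a mouse left out. The shares of all genes, 22.5% called and 21.7% past the cutoff, are given for the reported fit only. The counts of the other fits therefore stand without a background. Members whose groups did not overlap numbered 1 on FPKM, beside 28.7% of all genes, and 1 to 3 with a mouse left out. They numbered 2 on TMM-scaled CPM, 2 relative to hepatocyte markers and 6 relative to macrophage markers (all 6 lower). The mean of the macrophage markers itself was 0.86 higher on the log2 scale, without overlap. No share of all genes is given on these other scales, so these counts are not a result about the members.

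Signs changed for several members. Without TMM scaling and with limma on log2(FPKM + 1) or log2(FPKM + 0.1), *Ppard* was 0.026, 0.021 and 0.033 and *Creb3l3* was 0.060, 0.0587 and 0.0589. *Ppargc1b* was -0.090 with limma-voom and -0.31 to 0.25 with a mouse left out. *Med1* was -0.013 without the filter and -0.029 to 0.066 with a mouse left out. Relative to hepatocyte markers *Ppard* was 0.28, *Rxra* 0.16, *Ncor1* 0.22 and *Creb3l3* 0.30, and relative to macrophage markers *Pparg* was -0.18, *Ppargc1b* -0.70 and *Med1* -0.61. The endothelial markers were -0.16 with median-ratio scaling against 0.07. With a mouse left out, the log2 ratio was -0.64 to -0.40 for *Ppara* to *Rxra*, -0.74 to -0.21 for *Ppargc1a* to *Ppargc1b* and -0.35 to -0.20 for *Ncor1* to *Med1*, and the *Rxra* share differed by -3.54 to -2.39 points. The causes of these changes were not tested.

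Called genes per list varied, and the share of all genes called (22.5%) is given for the reported fit only. PPARα targets numbered 12 and 19 with DESeq2. PGC-1 genes numbered 4, then 2 at a mean FPKM of at least 5 and 1 to 6 with a mouse left out. RXR partners numbered 6, then 3 at a mean FPKM of at least 5 and with either limma fit on FPKM, and 3 to 6 with a mouse left out. Coactivators numbered 3, then 5 without TMM scaling and 0 to 4 with a mouse left out. Corepressors numbered 2, then 4 without TMM scaling, without the filter and with DESeq2, 1 at a mean FPKM of at least 5, and 1 to 3 with a mouse left out. Mediator genes numbered 2, then 8 without TMM scaling, 7 with either limma fit on FPKM, 1 at a mean FPKM of at least 5, and 1 to 4 with a mouse left out. No paired analysis was possible because the mice carry no numbers shared between genotypes in the labels. Among all genes called, 48.4% were higher in *Usp39*-HKO livers with TMM scaling and 83.3% without. Depth limits *Ppard*, *Pparg* and *Ppargc1b* most, at 86 to 257 counts per liver. With 4 mice a group the exact test cannot go below 0.0286.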
